A study of Rattus norvegicus with 47 samples.

Results

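The genes described here are the enzymes that detoxify with glutathione and remove peroxides and superoxide in the rat testis. They were chosen by symbol alone. Members are all probes with 1 gene symbol that begins with Gst, Mgst, Gpx, Prdx, Txn or Srxn, or that is Sod1, Sod2, Sod3, Cat, Gclm, Gsr, Gss, Nqo1 or Nqo2. This gave 58 probes for 51 genes, out of 20500 probes with processed values and 9645 genes with a symbol. Gclc, also sought, was not analysed here. The 51 genes are 17 glutathione S-transferases, 3 enzymes of glutathione synthesis and recycling, 7 glutathione peroxidases, 7 peroxiredoxins and sulfiredoxin, 11 thioredoxins and their partners, and 6 superoxide dismutases, catalase and quinone reductases.

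Sprague-Dawley male rats aged 90 days received 650 mg/kg of methoxyacetic acid (MAA) by intraperitoneal injection, or saline. MAA is a small alkoxy acid known to damage spermatocytes. Testes were taken 4, 8, 12 or 24 h later from 6 animals per group, except that 5 saline animals at 4 h are analysed here. RNA from a piece of the right testis of each animal was hybridised on its own Agilent array, 47 arrays in all, together with a commercial universal rat RNA as reference in the second dye. Each time had its own saline group. The tissue is bulk testis, so fewer cells of a type and less RNA per cell cannot be told apart.

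The level used throughout is M, the log2 ratio of testis over reference RNA after loess normalization within each array. A change is the difference in M, MAA minus saline, fitted with hybridisation date as a term. Ranges, group means and overlap of groups use M itself, without correction for date. Some of the 12 dates held only saline or only MAA arrays, and those arrays give no direct comparison of the treatments. The labels name Cy5 as the testis dye, but testis RNA lies in the channel headed Cy3 in the array files, and every sign below follows the files. The median of each marker list was set against each array's median log2 ratio of Cy3 over Cy5. Spermatocyte, round spermatid and elongating spermatid markers lay above it on 47 of 47 arrays. Sertoli cell markers did on 46 and Leydig cell markers on 45. Spermatogonial markers did on 3 arrays only, with 2 of 7 genes above it. Markers of myoid cells, macrophages, endothelium and epididymis did on 0 arrays, although 3 of 9 macrophage and 2 of 6 endothelial genes lay above it. The 2 blood cell markers did on 22. A total of 3 arrays, of animals 3, 27 and 44, were left out together in 1 alternative setting. All other results include them unless stated. The files of MAA 12 h animal 27 and MAA 8 h animal 15 hold identical Cy5 intensities. To which array these belong is not known, so M of at least 1 of the 2 rests on another array's reference. Both animals hold the highest Gstp1 value of their group, and only animal 27 was left out in that setting. MAA 4 h animal 3 was the highest of its group in 7 of the 11 member probes called below, and MAA 24 h animal 44 was the lowest of its group in 8 of 11. Median testis intensity ran from 431 to 1749 units per array, and between 43.5% and 97.2% of probes were above background.

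Glutathione is a small thiol made from glutamate, cysteine and glycine and kept reduced by glutathione reductase. Transferases attach it to electrophiles, and glutathione peroxidases spend it on peroxides. Peroxiredoxins reduce peroxides through a reactive cysteine and are themselves reduced by thioredoxin, which thioredoxin reductase recharges with NADPH. In the testis these enzymes also take part in sperm formation, where Gpx4 becomes a structural protein of the sperm midpiece. The transcription factor Nfe2l2 (NRF2) induces many of these genes through the antioxidant response element.

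The promoters of 4 genes with a called probe are printed because the element can be read in 3 of them and is missing from the fourth. They run 5′ to 3′ from 250 bases before to 50 bases after the gene's start in RefSeq on GRCr8. Capitals mark matches to the response element, searched as TGACNNNGC or its reverse GCNNNGTCA, and to the overlapping AP-1 motif TGANTCA, on both strands. Gstp1 lies at chr1:210769656-210769955 on the minus strand, Prdx1 at chr5:135383656-135383955 on the plus strand, Prdx2 at chr19:40090933-40091232 on the minus strand and Prdx4 at chrX:43878483-43878782 on the plus strand.
Gstp1: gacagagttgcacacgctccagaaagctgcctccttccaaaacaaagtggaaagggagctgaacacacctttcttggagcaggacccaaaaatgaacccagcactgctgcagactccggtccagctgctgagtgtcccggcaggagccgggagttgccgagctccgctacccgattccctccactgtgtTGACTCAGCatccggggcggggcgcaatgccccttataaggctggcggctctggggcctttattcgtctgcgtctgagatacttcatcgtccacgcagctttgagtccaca
Prdx1: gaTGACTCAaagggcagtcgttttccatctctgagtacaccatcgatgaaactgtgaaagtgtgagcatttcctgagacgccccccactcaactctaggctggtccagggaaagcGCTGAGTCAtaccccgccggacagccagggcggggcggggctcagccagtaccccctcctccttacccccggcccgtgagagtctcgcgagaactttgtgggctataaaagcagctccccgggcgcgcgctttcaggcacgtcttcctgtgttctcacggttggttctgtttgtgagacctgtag
Prdx2: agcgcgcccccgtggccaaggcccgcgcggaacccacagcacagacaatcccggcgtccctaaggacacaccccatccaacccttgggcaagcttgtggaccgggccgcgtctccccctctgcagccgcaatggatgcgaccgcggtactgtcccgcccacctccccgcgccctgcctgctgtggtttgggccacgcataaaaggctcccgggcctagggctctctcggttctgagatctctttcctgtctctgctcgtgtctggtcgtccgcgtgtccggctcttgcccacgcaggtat
Prdx4: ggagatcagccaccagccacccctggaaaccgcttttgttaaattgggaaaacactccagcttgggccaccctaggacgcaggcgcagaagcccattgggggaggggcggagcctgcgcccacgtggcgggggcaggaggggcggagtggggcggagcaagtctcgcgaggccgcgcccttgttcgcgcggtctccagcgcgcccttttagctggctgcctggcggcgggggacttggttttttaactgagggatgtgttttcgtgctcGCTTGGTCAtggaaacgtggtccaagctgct

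In Gstp1 both motifs share 1 stretch that begins at position -61 from the start. Prdx1 has a combined match at -135 and a separate AP-1 match at -248, while the match of Prdx4 lies after the start, at 19. Promoters were found for 43 of the 51 genes. The response element was present in 14 of them (32.6%), against 12.2% of all 27457 promoters and 14.3% of the 7927 promoters of genes on the array. AP-1 was present in 6 of 43 (14%, against 7.33% of all promoters and 5.44% of those of array genes). The GC box GGGCGG was present in 30 (69.8%, against 34.9% and 58.3%), close to its share among array genes, and TATAAA in 7 (16.3%, against 14.3% and 8.49%). Of the 10 genes with a called probe, all of which matched, 3 held the response element, 3 the AP-1 motif and 8 the GC box. These matches describe letters in a window of 300 bases and are not evidence of binding.

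After loess, a small group of these enzymes was higher in MAA testes at 12 h and a larger one at 24 h, and no member was called lower at any time. Gstp1, Prdx4 and Prdx2 were called at both times. With plain median centring of the arrays limma called 0 members, as given below. The threshold for a call was an adjusted p of 0.05 in limma, with the Benjamini-Hochberg method over all 20500 probes. At 12 h 4 of 58 member probes were called (6.9%), all higher, where 2.53% of all probes were called and 1.69% were called higher. At 24 h 11 of 58 were called (19%), all higher, against 2.99% of all probes called and 2.25% called higher. The 4 probes of 12 h, for Gstp1, Prdx4 and Prdx2, were all among the 11. The other genes of 24 h were Mgst1, Prdx1, Gsta4, Txnl1, Txndc8, Gpx1 and Sod1. At 4 h and 8 h limma called 0 members, where 0.0195% and 0.00976% of all probes were called, and 6 and 5 of the 51 genes had an unadjusted p under 0.05 (7.39% and 7.12% of all probes did). At 12 h and 24 h 13 and 21 genes did, against 14.7% and 14.3% of all probes.

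Over all 51 genes, called ones included, most changes lay above 0 at the late times. The median change of the 51 genes was -0.06 at 4 h, 0.06 at 8 h, 0.17 at 12 h and 0.13 at 24 h, while the median of all probes stayed between 0.01 and 0.04. Genes with a change above 0 numbered 18, 32, 43 and 38 of 51 at the 4 times, where 51.1%, 52.3%, 56.3% and 54.0% of all probes did. Under median centring 35 and 30 of the 58 member probes lay above 0 at 12 and 24 h. The lean depends on the scaling: over the 58 probes the medians at 4, 8, 12 and 24 h were 0.14, -0.04, 0.05 and 0.01 with median centring, and 0.0024, 0.06, 0.11 and 0.16 with the testis channel alone by quantiles. The MAA and saline samples of 6 member probes did not overlap at 12 h (10.3%, against 3.02% of all probes), and those of 6 did not at 24 h (10.3%, against 1.9%). At 8 h 2 probes, of Gstp1 and Prdx2, did not overlap (against 0.659% of all probes), and at 4 h 0 (against 0.663%).

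**Figure D1:**
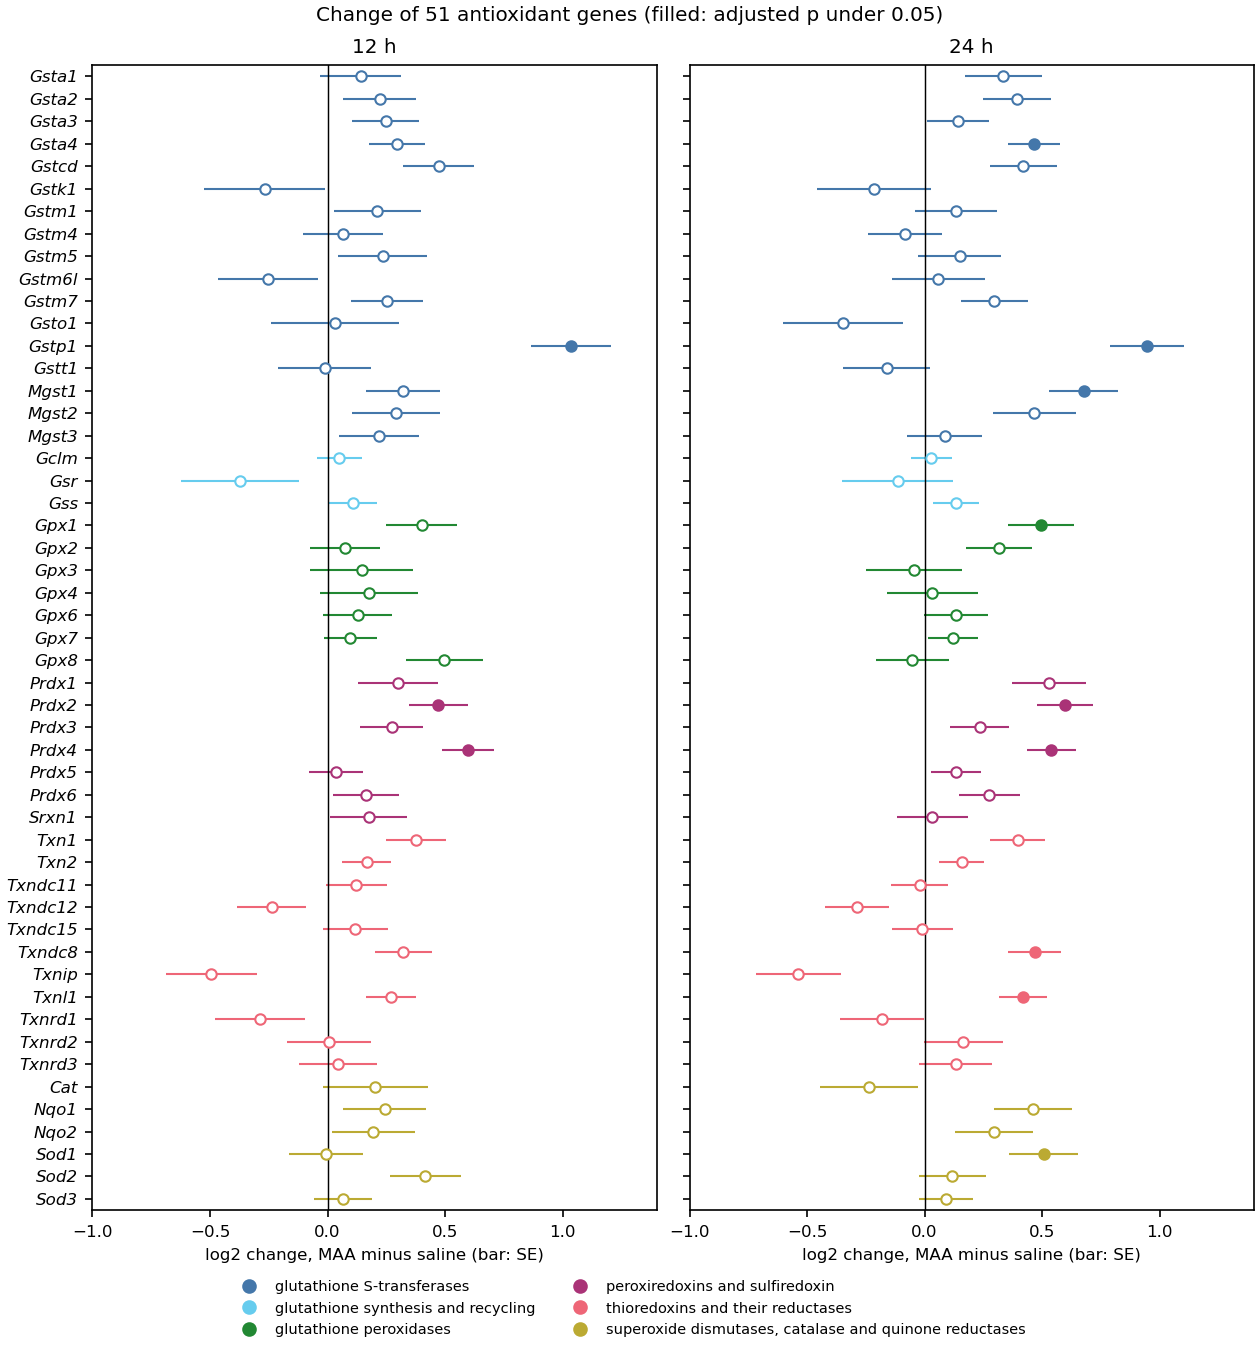
Change of each of the 51 genes (log2, MAA minus saline, x axis, bars are SE) at 12 h (left) and 24 h (right), 1 probe per gene, coloured by role and filled where the adjusted p was under 0.05. Gstp1 lies farthest to the right at both times, with 1.03 and 0.95.

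The counts of calls depend on how the arrays are scaled. The same raw intensities were also centred on each array's median, without correction by intensity, and the testis channel was taken alone, without the reference. The testis channel alone with quantile normalization gave 4 member calls at 12 h and 9 at 24 h, of which 3 and 6 were among those called after loess. Scaled instead to its median, the testis channel alone gave only Gstp1 at each time. With median centring of the ratio limma called 0 member probes at either time, and 4 and 5 had an unadjusted p under 0.05. All 15 called values kept their sign under each of these scalings. The authors' deposited ratio gave 2 and 5 calls. Within the single hybridisation dates that held both treatments, the called probes were all above 0 at 24 h, from 0.27 to 1.32 on 2 dates with 2 arrays of each treatment, and at 12 h those of Gstp1, Prdx4 and Prdx2 lay between 0.47 and 1.22. Each setting has its own background of calls: over the whole array 346 probes were called higher and 172 lower at 12 h after loess, and 461 and 151 at 24 h. Under median centring these numbers were 28 and 125, then 20 and 173. For the testis channel alone by quantiles they were 224 and 237, then 557 and 518. Scaled to its median, that channel gave 80 and 206, then 67 and 96, and the deposited ratio gave 128 and 266, then 165 and 213.

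Brightness moves with this dependence. All 11 called member probes belong to the brightest of 4 equal bins of the array, 5125 probes that hold 35 of the 58 members. In that bin 5.19% of all probes were called higher at 12 h and 7.82% at 24 h, and of its members 11.4% and 31.4%. After loess the median change of the whole bin at 24 h was 0.09, with median centring it was -0.14, and with the testis channel alone by quantiles it was -0.0045. The median of its 35 members at 24 h was 0.34 after loess, 0.02 under median centring and 0.26 for the testis channel alone. Set against the median of the whole bin, the median of the members lay higher by 0.24, 0.17 and 0.26 at 24 h. At 12 h the same differences were 0.13, 0.09 and 0.16. The bin was examined after the calls had been seen, and its part in them was not tested further.

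**Figure D2:**
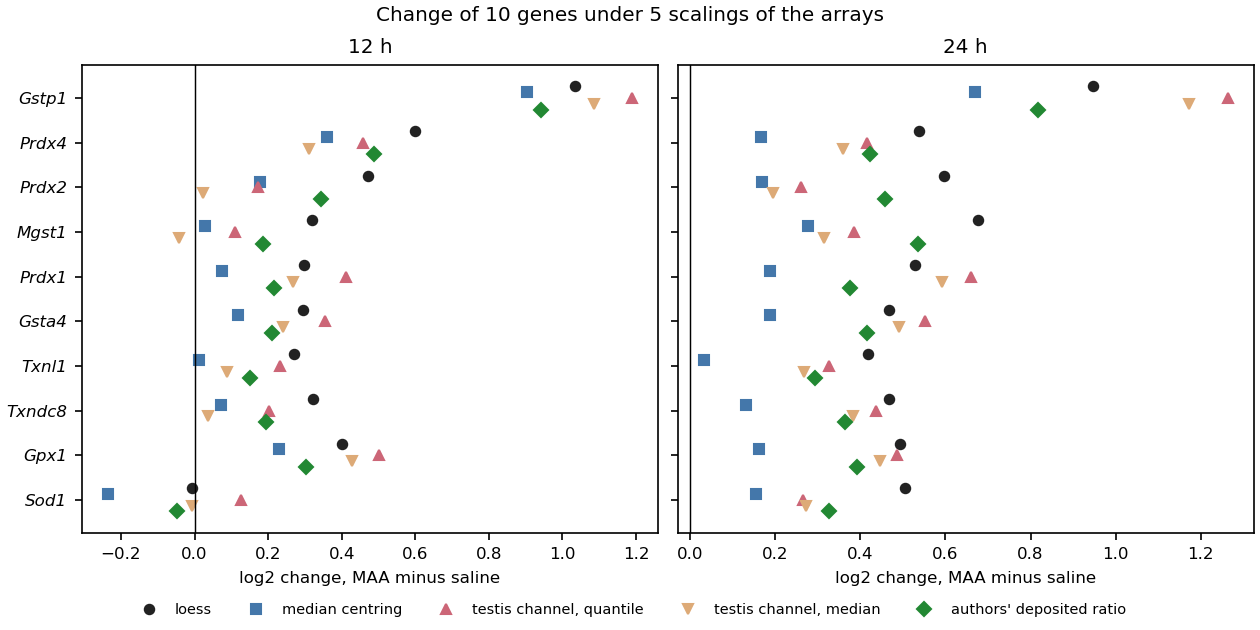
Change (log2, MAA minus saline, x axis) of the 10 genes with a called probe at 12 h (left) and 24 h (right) under 5 scalings, shown by marker. At 24 h every marker lies above 0, from 0.03 for Txnl1 with median centring to 1.26 for Gstp1 with the testis channel alone.

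Glutathione S-transferases. Gstp1, the pi-class transferase that conjugates small electrophiles, rose most of all members and was called at both late times. In the saline testes of 12 h its M ran from -2.71 through a median of -2.61 to -2.24, and in the MAA testes from -1.60 through -1.42 to -1.08. At 24 h saline ran from -2.73 through -2.42 to -2.38 and MAA from -2.04 through -1.30 to -1.02. The groups did not overlap at either time. The change was 1.03 ± 0.17 (SE, n = 6 and 6), 2.05-fold, at 12 h (limma adjusted p = 0.000528), and 0.95 ± 0.16, 1.93-fold, at 24 h (adjusted p = 0.000659). Within single hybridisation dates it was 1.06 and 1.22 at 12 h and 1.32 and 1.03 at 24 h.

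In M not corrected for date the groups of Gstp1 were already separate at 8 h, although the change did not pass the test. MAA testes then ran from -2.17 through -1.97 to -1.75, above all saline testes, which ran from -2.92 through -2.55 to -2.21 (change 0.46 ± 0.16, adjusted p = 0.501). At 4 h the 5 saline values were -2.72, -2.71, -2.57, -2.40 and -2.21, and the MAA values ran from -2.58 through -2.16 to -0.73. The highest of these is animal 3, far above the rest, and the change of 0.35 was 0.11 without it. Under median centring the change of Gstp1 was 0.90 at 12 h (adjusted p = 0.0643) and 0.67 at 24 h (adjusted p = 0.17). For the testis channel alone by quantiles it was 1.19 (adjusted p = 2.23e-05) and 1.26 (adjusted p = 1.88e-06).

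Mgst1, a membrane-bound transferase of the endoplasmic reticulum and mitochondria that also reduces lipid peroxides, rose at 24 h. Saline testes ran from -1.11 through -0.52 to -0.44 and MAA testes from -0.54 through 0.06 to 0.30. Only animal 44, at -0.54, lay among the saline values. The change was 0.68 ± 0.15, 1.60-fold (adjusted p = 0.00709), after 0.32 at 12 h (adjusted p = 0.336). The 24 h value was 0.28 under median centring (adjusted p = 0.614) and 0.39 for the testis channel alone by quantiles (adjusted p = 0.103), neither called. At 12 h its groups did not overlap even so, with saline from -0.74 through -0.54 to -0.42 and MAA from -0.33 through -0.28 to -0.0040. The 12 h change turns to -0.04 with the testis channel alone scaled to its median.

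Gsta4, the alpha-class enzyme with a preference for the lipid peroxidation product 4-hydroxynonenal, rose at 24 h. Its saline testes ran from -0.97 through -0.38 to -0.15 and its MAA testes from -0.28 through 0.02 to 0.24, with some overlap. The change was 0.47 ± 0.11, 1.38-fold (adjusted p = 0.014), and 0.55 with the testis channel alone by quantiles (adjusted p = 0.0025). Under median centring it was 0.19 (adjusted p = 0.711) and in the deposited ratio 0.42 (adjusted p = 0.0578), neither called. Leaving out saline animal 38 or MAA animal 40 ended the call, and the other 45 single omissions kept it.

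The other 14 transferases were not called at 24 h. Gsta2, an alpha-class enzyme with 2 probes, had changes of 0.39 and 0.37 at 24 h (adjusted p = 0.154 and 0.119), and Mgst2 0.47 (adjusted p = 0.163). Gstcd, named for a transferase-like C-terminal domain, had 0.47 at 12 h (adjusted p = 0.0874) and 0.42 at 24 h (adjusted p = 0.106). Its 12 h groups did not overlap, with saline from 0.95 through 1.15 to 1.42 and MAA from 1.47 through 1.78 to 1.90. Among the best known mu and alpha enzymes, Gstm1 had 0.21 and 0.13 and Gsta3 0.25 and 0.14 at 12 and 24 h. Gstk1, the mitochondrial and peroxisomal kappa enzyme, had -0.57 at 8 h (adjusted p = 0.649). It was then above background on 5 of 6 saline arrays and 2 of 6 MAA arrays, so this value lies near the floor. Transferases of one class have similar sequences, and whether probes of neighbouring genes share signal was not tested. Gstm5 was saturated on 35 of 47 arrays, including all 6 saline arrays of 12 h, so that its change is a bound and is not given. Gstm6l and Gsto1 were above background on 9 and 17 arrays, and no fold is given for them.

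**Figure D3:**
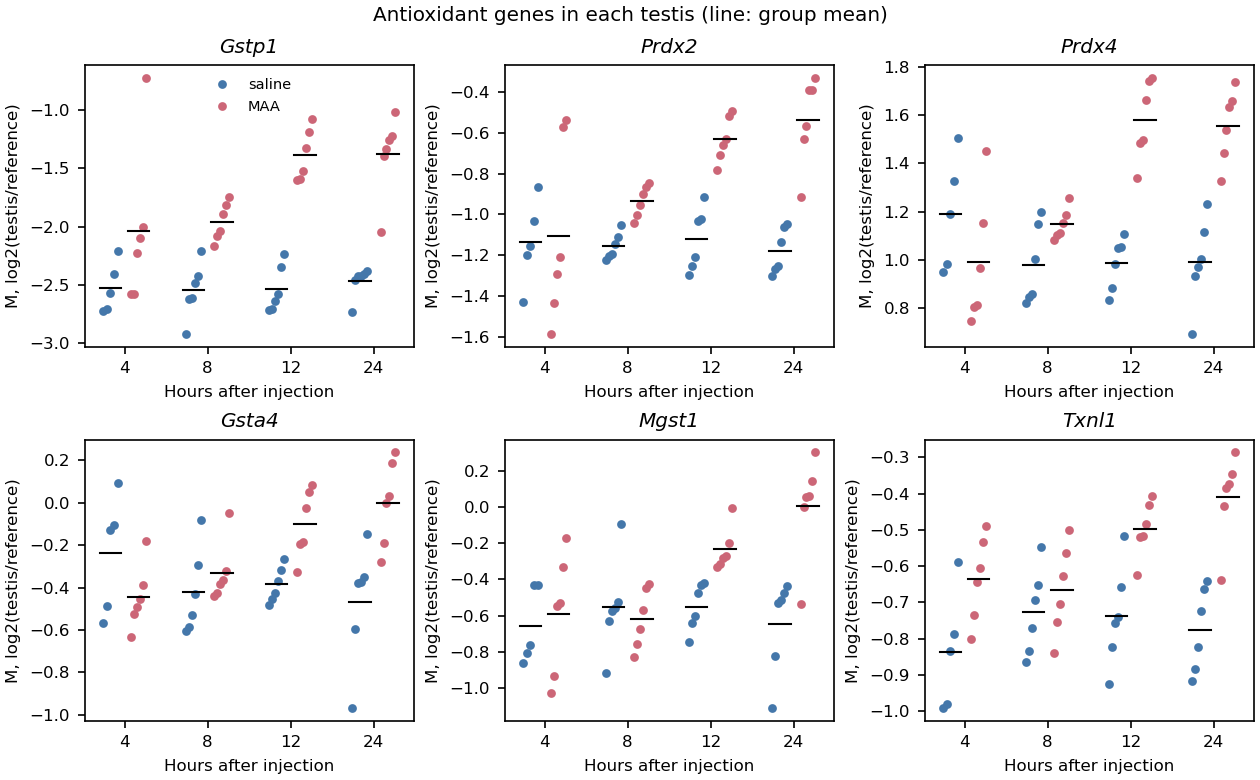
M, the log2 ratio of testis over reference (y axis), in every animal for 6 genes at 4, 8, 12 and 24 h, saline in blue and MAA in red, with a line at each group mean. MAA and saline points of Gstp1 separate at 8, 12 and 24 h, and animal 3 stands out at 4 h at -0.73.

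Glutathione synthesis and recycling. None of the 3 genes was called at any time. Gclm, the regulatory subunit of the rate-limiting ligase and a standard target of NRF2, had a change of 0.05 ± 0.09 at 12 h and 0.03 ± 0.09 at 24 h, with overlapping groups. Its saline testes ran from -1.06 through -0.92 to -0.76 at 24 h and its MAA testes from -1.14 through -1.04 to -0.74. Gss, which adds the glycine, had 0.11 and 0.13. Gsr, the reductase, was above background on 5 of 47 arrays, too few for a fold.

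Glutathione peroxidases. Gpx1, the cytosolic selenoenzyme that reduces hydrogen peroxide, was the one peroxidase of 7 to be called, and that at 24 h. Saline testes ran from -3.31 through -2.85 to -2.68 and MAA testes from -2.80 through -2.33 to -2.08, with slight overlap. The change was 0.49 ± 0.14, 1.41-fold (adjusted p = 0.0453), close to the threshold: the call was kept in 24 of 47 fits that leave out 1 array. Gpx1 was called at both times with the testis channel alone by quantiles, at 0.50 (adjusted p = 0.0326) and 0.49 (adjusted p = 0.0151). At 24 h it was not called under median centring, at 0.16 (adjusted p = 0.732), or in the deposited ratio, at 0.39 (adjusted p = 0.169). Gpx8, a peroxidase of the endoplasmic reticulum, had 0.50 at 12 h (adjusted p = 0.102) but -0.05 at 24 h. Gpx4, the phospholipid peroxidase needed for sperm formation, was saturated on 31 arrays, including all 6 MAA arrays of 12 h, and its small changes are therefore not given. Gpx3 was above background on 12 arrays. Gpx2, above background on 26 arrays, had -0.36 at 4 h (adjusted p = 0.584) and 0.32 at 24 h (adjusted p = 0.272).

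Peroxiredoxins and sulfiredoxin. Here 2 of 7 genes were called at 12 h, and the same 2, Prdx2 and Prdx4, together with 1 probe of Prdx1, at 24 h. All 7 genes had changes above 0 at both times, with a median of 0.27 and 0.28. Prdx4, the peroxiredoxin of the endoplasmic reticulum, ran in saline testes of 12 h from 0.84 through 1.02 to 1.11 and in MAA testes from 1.34 through 1.58 to 1.75. At 24 h saline ran from 0.69 through 0.99 to 1.23 and MAA from 1.33 through 1.59 to 1.74. The groups did not overlap at either time. The change was 0.60 ± 0.11, 1.51-fold, at 12 h (adjusted p = 0.00198) and 0.54 ± 0.10, 1.45-fold, at 24 h (adjusted p = 0.00281). It was 0.46 (adjusted p = 0.00919) and 0.42 (adjusted p = 0.00688) with the testis channel alone by quantiles, and with median centring 0.36 (adjusted p = 0.499) and 0.17 (adjusted p = 0.766).

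Prdx2, an abundant cytosolic peroxiredoxin, has 2 probes, and both were called at both times. On the brighter probe saline testes of 12 h ran from -1.30 through -1.12 to -0.91 and MAA testes from -0.78 through -0.65 to -0.49, and at 24 h from -1.30 through -1.19 to -1.05 and from -0.92 through -0.48 to -0.33. These groups did not overlap. The change was 0.47 ± 0.13 at 12 h (adjusted p = 0.0345) and 0.60 ± 0.12, 1.51-fold, at 24 h (adjusted p = 0.00323). The other probe gave 0.53 (adjusted p = 0.0199) and 0.53 (adjusted p = 0.011). Its groups overlapped at 12 h, with MAA from -1.11 and saline up to -1.05, but not at 24 h. On the testis channel alone by quantiles the brighter probe gave 0.17 (adjusted p = 0.666) and 0.26 (adjusted p = 0.226), neither called, and the other probe 0.46 (adjusted p = 0.0356) and 0.27 (adjusted p = 0.193). Under median centring the brighter probe had 0.18 (adjusted p = 0.827) and 0.17 (adjusted p = 0.787). The other probe then had 0.32 (adjusted p = 0.564) and 0.12 (adjusted p = 0.847), and none of these was called. With the testis channel scaled to its median the brighter probe had 0.02 at 12 h. The brighter probe separated the groups at 8 h as well, with MAA from -1.04 through -0.93 to -0.85 and saline from -1.22 through -1.17 to -1.05, although the change of 0.19 was not called (adjusted p = 0.782). The other probe did not separate them at 8 h, with MAA from -1.53 to -0.83 and saline from -1.41 to -0.83. Its change was 0.08 (adjusted p = 0.929).

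Prdx1, another cytosolic peroxiredoxin and a known target of NRF2, also has 2 probes, and they fall on either side of the threshold at 24 h. The called one ran from -1.91 through -1.55 to -1.43 in saline and from -1.42 through -0.91 to -0.81 in MAA testes, with no overlap but a gap of under 0.01. Its change was 0.61 ± 0.14, 1.52-fold (adjusted p = 0.00974). The brighter probe had 0.53 ± 0.16 (adjusted p = 0.0602), with animal 44 at -2.70 below every other MAA testis. Both probes were called with the testis channel alone by quantiles, at 0.60 (adjusted p = 0.0136) and 0.66 (adjusted p = 0.0205). Neither was called under median centring, at 0.28 (adjusted p = 0.572) and 0.19 (adjusted p = 0.797). Prdx3, the mitochondrial enzyme, had 0.27 and 0.23, Prdx5 0.04 and 0.13, and Prdx6, which uses glutathione as reductant, 0.16 and 0.28. Srxn1, the sulfiredoxin that repairs over-oxidised peroxiredoxins and a target of NRF2, had 0.17 and 0.03.

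Thioredoxins and their partners. Of 11 genes 2 were called at 24 h. Txndc8, known in human and mouse as a thioredoxin of spermatids, ran from 1.27 through 1.38 to 1.65 in saline and from 1.38 through 1.74 to 2.18 in MAA testes, with overlapping ranges. Its change was 0.47 ± 0.11, 1.38-fold (adjusted p = 0.0155), lost without saline animal 41 or MAA animals 40 or 43. It was 0.44 for the testis channel alone by quantiles (adjusted p = 0.0184) and 0.13 under median centring (adjusted p = 0.848). Txnl1, a thioredoxin-like protein that associates with the proteasome, ran from -0.92 through -0.77 to -0.64 in saline and from -0.64 through -0.38 to -0.29 in MAA testes. These groups touch without overlap, and the change was 0.42 ± 0.10, 1.34-fold (adjusted p = 0.014). With median centring it was 0.03 (adjusted p = 0.965), the smallest of the called genes.

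Txn1, cytosolic thioredoxin itself, came close without being called. At 24 h its saline testes ran from -2.40 through -2.17 to -1.85 and its MAA testes from -2.03 through -1.69 to -1.44. Its change was 0.38 ± 0.13 at 12 h (adjusted p = 0.108) and 0.40 ± 0.12 at 24 h (adjusted p = 0.0596), and it was called at both times, at 0.43 and 0.47, when the date term was dropped. None of the reductases that recharge thioredoxin was called. Txnrd1 had -0.29 at 12 h and -0.18 at 24 h. It was above background on 31 of 47 arrays, and on 3 of 6 MAA arrays at each of these times. Txnrd3, the testis reductase, had 0.04 and 0.13, while Txnrd2 was above background on 17 of 47 arrays and no change is given. Txnip, the protein that binds and inhibits thioredoxin, had negative values on its brighter probe, -0.50 ± 0.19 at 12 h (adjusted p = 0.189) and -0.54 ± 0.18 at 24 h (adjusted p = 0.104). At 24 h its saline testes ran from -0.47 through 0.12 to 0.70 and its MAA testes from -0.69 through -0.23 to -0.04. Mean M of the MAA testes on this probe was -0.27, -0.31, -0.28 and -0.29 at 4, 8, 12 and 24 h. That of the saline testes was -0.26, -0.18, 0.04 and 0.18, so it was the saline mean that rose. This probe was above background on 6 saline and 4 MAA arrays at 12 h, and on 6 and 3 at 24 h. Txnip was called lower at 24 h with the testis channel alone by quantiles, at -0.69. The dimmer probe of Txnip had -0.27 at 12 h and 0.08 at 24 h, the latter of opposite sign. That probe was above background on 15 arrays, at 24 h on 2 saline and 1 MAA array, and bears little on this change. Txndc12 had -0.24 and -0.29 (adjusted p = 0.484 and 0.326).

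Superoxide dismutases, catalase and quinone reductases. Sod1, the cytosolic copper and zinc dismutase, was the one gene of 6 to be called, at 24 h. Saline testes ran from -1.71 through -1.48 to -1.03 and MAA testes from -1.36 through -0.91 to -0.71, with overlap. The change was 0.51 ± 0.15, 1.42-fold (adjusted p = 0.0484), after -0.01 at 12 h. It was 0.27 for the testis channel alone by quantiles (adjusted p = 0.167) and 0.15 under median centring (adjusted p = 0.831), neither called. The second probe had 0.18 at 12 h (adjusted p = 0.639) and 0.44 at 24 h (adjusted p = 0.0837). The call of the brighter probe was kept in 11 of 47 fits that leave out 1 array. On that probe mean M of the MAA testes was -1.01 at 12 h and -0.98 at 24 h. That of the saline testes was -1.16, -1.26, -1.08 and -1.45 at 4, 8, 12 and 24 h, so the saline mean was lowest at 24 h. Sod2, the mitochondrial manganese enzyme, had 0.42 at 12 h (adjusted p = 0.15) and 0.12 at 24 h. Sod3, the extracellular form, had 0.07 and 0.09. Nqo2 had 0.42 at 8 h (adjusted p = 0.607), with 3 of 6 saline and 5 of 6 MAA arrays above background. Nqo1, the quinone reductase most used as a sign of NRF2 activity, had 0.24 at 12 h (adjusted p = 0.575) and 0.46 at 24 h (adjusted p = 0.137). Its 24 h saline testes ran from -0.76 through -0.43 to -0.19, with 3 of 6 above background, and its MAA testes from -0.32 through 0.04 to 0.40, with 6 of 6. Catalase was above background on 7 of 47 arrays, and no fold is given.

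The order of events in time was tested as a difference of the MAA effect between times. The F test over the 4 times called 1 of 58 members, Prdx4 (adjusted p = 0.0266), where 0.127% of all probes were called. The call was lost in 8 of 47 fits that leave out 1 array, and likewise under median centring or with the testis channel scaled to its own median. The change of Prdx4 went from -0.25 at 4 h through 0.16 at 8 h to 0.60 and 0.54. Its mean M in saline testes was 1.19 at 4 h, from 5 animals, then 0.98, 0.99 and 0.99. In MAA testes the mean was 0.99, 1.15, 1.58 and 1.56. Differences from 4 h thus draw in part on the higher saline values of 4 h. The 12 h change exceeded the 4 h change by 0.85 ± 0.15 (adjusted p = 0.0159) and the 24 h change exceeded it by 0.79 ± 0.15 (adjusted p = 0.0334). The 24 h change of Gsta4 exceeded its 4 h change by 0.69 ± 0.16 (adjusted p = 0.0391), although its F test was not called (adjusted p = 0.104). Here too the saline mean M was highest at 4 h, at -0.24, then -0.42, -0.38 and -0.47. The MAA means of Gsta4 were -0.45, -0.33, -0.10 and -0.0012. For Gstp1 the 12 h change exceeded that at 4 h by 0.69 ± 0.22 (adjusted p = 0.179), and the 24 h change was 0.09 below that at 12 h (adjusted p = 0.984). The 24 h changes of Mgst1 and Sod1 exceeded those at 12 h by 0.36 and 0.51, neither difference called (adjusted p = 0.839 and 0.735). Without animals 3, 27 and 44 the F test called 5 member probes, for Gstp1 (adjusted p = 0.00642), Prdx4 (adjusted p = 0.00422), both probes of Prdx2 and Mgst1, while F calls over the whole array went from 26 to 220. The same 3 arrays left out gave 5 member calls at 12 h and 16 at 24 h, with both probes of Gsta2, Gstcd and the remaining probes of Prdx1 and Sod1 added, while all calls over the array went from 518 to 569 and from 612 to 909. Animals 3 and 44 were picked for being high at 4 h and low at 24 h in the called probes themselves. Leaving them out tends to widen the 24 h changes and their difference from 4 h. These larger counts are therefore no support for the calls.

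**Figure D4:**
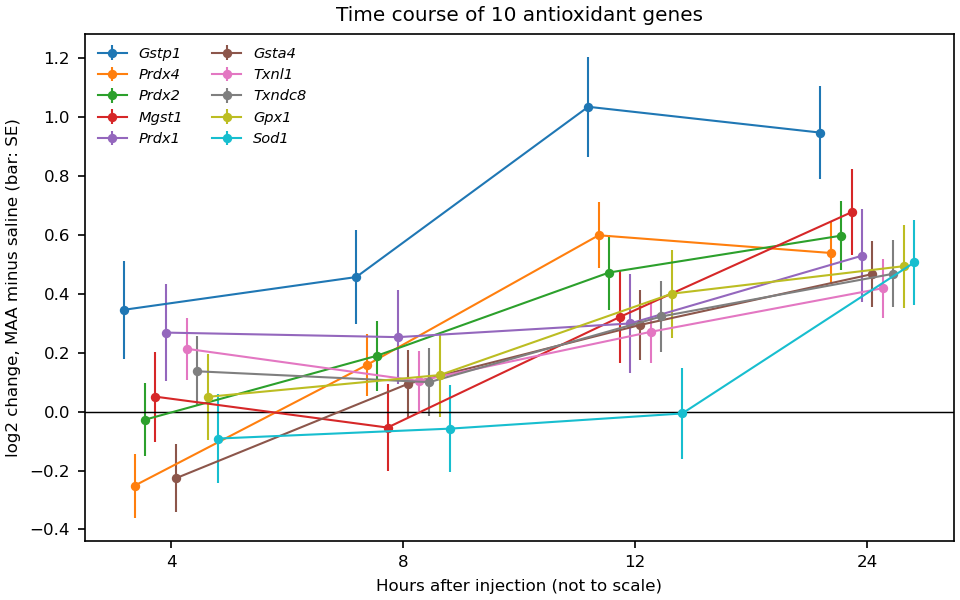
Change (log2, MAA minus saline, y axis, bars are SE) of the 10 genes with a called probe at 4, 8, 12 and 24 h, on the brighter probe of each gene and with the time axis not to scale. Prdx4 goes from -0.25 to 0.60 between 4 and 12 h. The change of Sod1 stays near 0 until 24 h, when its saline mean M was lowest.

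Genes of the same pathways outside the families were read from fixed lists. Of 21 regulators and targets of NRF2, 4 were called higher at 12 h and 4 at 24 h, 0 lower, with a median change of 0.24 and 0.16 (percentages of all probes as above). Hmox1, the inducible haem oxygenase, rose by 0.92 ± 0.14 at 12 h (adjusted p = 0.000199) and 0.90 ± 0.13 at 24 h (adjusted p = 0.000167). Ftl1, a ferritin light chain, rose by 0.63 and 0.49. Abcc3, an export pump for conjugates, and Akr7a3, an aldehyde reductase, rose at 12 h by 0.50 and 0.62 and had 0.08 and 0.18 at 24 h. Fth1, the ferritin heavy chain, and Slc7a11, the cystine carrier that feeds glutathione synthesis, rose at 24 h by 0.74 and 0.63. On the testis channel alone by quantiles the values of Hmox1 were 0.76 and 0.73 and that of Slc7a11 was 0.72, but that of Fth1 was 0.04. The mRNA of Nfe2l2 itself had 0.04 and 0.06.

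Single genes of neighbouring pathways were called, to be read against 2.53% and 2.99% of all probes called at 12 and 24 h. Of 18 genes of glutathione turnover and precursor supply only Esd, an esterase that cleaves formylglutathione, was called, at 12 h (0.64). Of 8 genes of NADPH supply Tkt, the transketolase of the pentose phosphate pathway, rose at 24 h (0.79, adjusted p = 0.014). Among 27 glutaredoxins, methionine sulfoxide reductases and other redox proteins, Oxr1 rose at both times (0.42 and 0.66), the methionine sulfoxide reductase Msrb2 fell at both (-0.57 and -0.48), and P4hb, a protein disulfide isomerase, rose at 24 h (0.48). P4hb had -0.05 with the testis channel alone by quantiles. For the other genes of this paragraph only the change after loess is given.

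The cell type markers moved in the same testes, and their part in the changes above was not tested. At 12 h 3 of 8 spermatocyte markers fell, Sycp1, Sycp2 and Sycp3, and the mean M of the 8 lay between 0.51 and 0.86 in MAA and between 0.89 and 1.08 in saline testes. At 24 h 1 spermatocyte marker was called higher and 1 lower, and the means, 0.50 to 0.99 against 0.86 to 1.01, overlapped. Of 11 elongating spermatid markers 2 were called higher at 12 h, with means of 0.46 to 0.78 against 0.17 to 0.40 and a median change of 0.32. At 24 h 1, Cabyr, was called higher, with means of 0.44 to 0.87 against -0.09 to 0.69 and a median change of 0.37. Of 6 round spermatid markers 0 were called, with a median change of 0.25 at 12 h and 0.05 at 24 h. Of 7 spermatogonial markers 1 was called higher at each late time, Uchl1 and then Id4, with median changes of 0.21 and 0.16. Of 9 Sertoli cell markers 1, Inha, was called higher at 12 h and 0 at 24 h. Of 6 Leydig cell markers 0 were called at 12 h and 2, Star and Hsd11b1, higher at 24 h. Of 9 macrophage and leukocyte markers 0 were called at any time, with means of -1.24 to -0.96 in MAA and -1.36 to -1.08 in saline testes at 24 h. Of 5 myoid markers 2 were called higher at 12 h and 1 at 24 h.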

How the data were processed

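Testis RNA of 47 rats was hybridised with a universal rat reference on 2-colour arrays, 1 array per animal. The deposited array files hold raw intensities of both channels, processed intensities and a log2 ratio that the authors normalized. Which software and normalization they used is not given in the sources used here. A normexp correction, which needs a background column, was not used here. The series table, whose columns are log2 ratios, was not used: 39 of 47 of its deposited columns equal the ratio of another array within 1e-06.

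From the raw intensities M = log2(Cy3/Cy5) was computed after loess within each array in limma 3.58.1 (R 4.3.3), with 2073 spots that lack processed values given no weight. Each probe was fitted with 8 groups and 12 hybridisation dates on 47 arrays (28 residual degrees of freedom). P-values are two-sided, from limma, Benjamini-Hochberg adjusted over 20500 probes, and the script was tested on simulated data. The number of arrays limits the precision. Probes count as above background by the deposited flag and as saturated at 65535 in the testis channel. Saturation of the reference channel was not examined.

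A gene with several probes stands by the probe brightest in the testis channel. Symbols come from the platform annotation. The genes named are those called, up to 4 per role with the smallest p and a list of well known members, 28 in all, and other members named were picked after their values were seen. Members and lists were chosen with earlier results of these data known. Alternatives were other scalings, the deposited ratio, the background filter, the date term, single time points, single dates and leaving out arrays.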

Additional observations from a re-analysis of the deposited data

Results flagged for a closer look

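Among 64 groups of values of 8 called genes, 6 held 1 animal far from the others by Dixon's criterion for small groups, where chance flags about 1 in 20. Gstp1 stood at -0.73 in MAA 4 h animal 3, above its whole group, and at -2.73 in saline 24 h animal 37, with the nearest at -2.46. MAA 24 h animal 44 was low in 3 genes: Gstp1 at -2.04 (nearest -1.40), Mgst1 at -0.54 (nearest -0.0028) and the brighter probe of Prdx1 at -2.70 (nearest -2.11). Gsta4 stood at -0.050 in MAA 8 h animal 23 (nearest -0.32). Prdx4 was singled out because its MAA effect differed between times in limma's F test (adjusted p = 0.0266).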

How the results depend on the processing

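No paired analysis was possible because animal numbers do not recur between groups. Against 4 and 11 member probes called at 12 h and 24 h, median centring gave 0 and 0, the testis channel alone by median 1 and 1, the deposited ratio 2 and 5, fits of a single time point 0 and 1, and fits within each date, with 1 or 2 MAA and 2 saline arrays, 0 and 0. The single-time fits called 0 probes of the whole array at 12 h and 9 higher and 7 lower at 24 h, and the date fits 0, so these say little about the members. The count for the F test, 1, was 0 under median centring and under the testis channel scaled to its median. It was 5 without animals 3, 27 and 44, a setting chosen after seeing the data, in part by the called probes themselves. The cause of these shifts was not tested, except that fits of single times or dates use fewer arrays. Leaving out each array in turn gave 2 to 5 member calls at 12 h, 7 to 13 at 24 h and 0 to 1 for the F test. The 12 h count was 2 without MAA animals 31 or 36 or saline animals 26, 29 or 30, and the 24 h count was 7 without MAA animal 40, which together with saline animal 38 also ended the 24 h call of Gsta4, and together with MAA animal 43 and saline animal 41 that of Txndc8. The F test lost Prdx4 without MAA animals 4 or 39 or saline animals 2, 6, 10, 30, 41 or 42. Gstp1 and Prdx4 were called at both times in all 47 of these fits. The brighter probe of Prdx2 kept its 12 h call in 38 and the other in 42. Counts at 4 h and 8 h were 0 under every setting run. With the channel headed Cy5 taken as testis, as labelled, all 15 called values turn their sign by construction. The other settings turned no called value. Signal limits Cat, Gsr, Gpx3, Gsto1, Gstm6l, Mgst3, Txnrd2 and the dimmer probe of Txnip, which were below background on most arrays. Saturation of the testis channel limits Gstm5 and Gpx4, and that of the reference channel was not examined.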
